A study of Bos taurus with 8 samples.

Results

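The ligands and receptors of the tumour necrosis factor (TNF) superfamily were followed in cattle blood cells, as RNA and as open chromatin. Members were genes whose name in the deposited RNA tables began with TNFSF or TNFRSF followed by a number. This gave 27 members of 21861 listed genes, of which 11 were ligands (TNFSF) and 16 were receptors (TNFRSF). Blood of 4 female, lactating Holstein cattle aged 2 years was pooled and divided into 4 parts, with 1 kept without LPS (lipopolysaccharide, a bacterial cell wall component) and the others treated with it at 2 µg/ml during 2 h, 4 h or 8 h. Peripheral blood mononuclear cells (PBMCs) were isolated after the treatment, and 1 library for scRNA-seq and 1 for scATAC-seq were made from each part. With 1 library of 1 pool per treatment no difference has a replicate check, no test was possible and no p-value was computed. No incubation time was given for the part without LPS, so LPS and time in incubation cannot be told apart.

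TNF superfamily ligands are mostly membrane proteins that form trimers, and they can be shed as soluble cytokines. Their receptors signal through TRAF adaptors to NF-κB and MAP kinases, or, where they carry a death domain, also to cell death, while decoy receptors bind a ligand without passing on a full signal. In blood, members of the family are known for costimulation of T cells, for survival of B cells and for the response of monocytes to inflammation.

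The cells kept numbered 7821, 9865, 7387 and 3411 (no LPS, 2 h, 4 h and 8 h, as in every series of 4 values), with 38503367, 47875879, 40160248 and 16657841 UMIs (unique molecular identifiers, counted RNA molecules). The 8 h library thus had the fewest cells and UMIs, while the median UMIs per cell were 3997, 4076, 4757 and 4580. Levels are CPM, the UMIs of a gene per 1000000 UMIs of the cells summed, and intervals are exact 95% intervals that cover counting error only. A member was called higher or lower where the ratio of CPM + 1 reached 2-fold and at least 20 UMIs were counted over the compared sums, and "rose" and "fell" are used of such members only. Any 2 RNA libraries shared 8 to 24 barcodes. Cell classes were gated on 1 gene each, with at least 2 UMIs of CD14 or at least 1 of CD3E, MS4A1, NCR1 or FLT3 and none of the other 4 genes. Cells with several gate genes were left out, and no doublet caller was run. The CD14 gate held 700, 298, 111 and 64 cells, or 8.95%, 3.02%, 1.5% and 1.88% of the cells kept. These were cells with at most 3000 genes. Median depths by library were 9156 to 12481 UMIs in the CD14 gate and 4070 to 5242 UMIs in the CD3E gate. The part of the upper limit on genes in the CD14 shares was not tested. The CD3E gate held 3480, 4932, 3854 and 1545 cells, the MS4A1 gate 1691, 2390, 1892 and 662, the NCR1 gate 58, 97, 90 and 38, and the FLT3 gate 20, 16, 8 and 6. The monocyte marker list summed to 6693 to 12995 CPM in CD14-gated cells and to at most 282 CPM in any other class, and the T, B and NK cell lists were highest in CD3E-, MS4A1- and NCR1-gated cells. In FLT3-gated cells CST3 and BATF3 gave most of the dendritic cell list, XCR1 was at 0 in every library and CLEC9A had 1 UMI, so that class is called by its gate only.

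Over all cells the T cell costimulatory receptors TNFRSF4 and TNFRSF18 gave the largest rises among members with at least 200 UMIs, and TNFRSF1A, TNFSF13B and TNFSF12 were among those that fell. At 2 h 3 of 23 members tested rose (TNFRSF4, TNFRSF13B and TNFRSF18), against 0.938% of all genes tested, and 2 fell (TNFSF12 and TNFRSF1A), against 2.46%. At 4 h 5 of 24 rose (TNFSF10, TNFRSF4, TNFRSF11B, TNFRSF18 and TNFRSF25), against 1.28%, and 6 fell (TNFSF12, TNFSF13B, TNFSF15, TNFRSF1A, TNFRSF12A and TNFRSF21), against 4.26%. At 8 h TNFRSF4 alone rose among 22 members tested, a call that 4 other settings did not give, against 0.492% of all genes, and TNFSF13B, TNFRSF1A and TNFRSF12A fell, against 2.92%. The median log2 ratio of the members tested was 0.04, 0.25 and -0.13 at 2 h, 4 h and 8 h, beside -0.03, 0.02 and 0.10 over all genes tested. At any LPS time 12 of 24 members were called in either direction, against 6.67%. The 3 ratios share the same library without LPS.

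Of the 27 members, 18 had at least 200 UMIs over the 4 libraries, 6 had at least 20 but under 200, and 3 had fewer than 20 (TNFSF18, TNFRSF8 and TNFRSF19). The ligand of TNFRSF18 and the receptor of TNFSF8 were thus nearly undetected, with 18 UMIs for TNFSF18 and 16 for TNFRSF8 in all. In sums over all cells, fewer cells of a type and less RNA per cell cannot be told apart, which touches above all the members of the CD14-gated class.

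**Figure D1:**
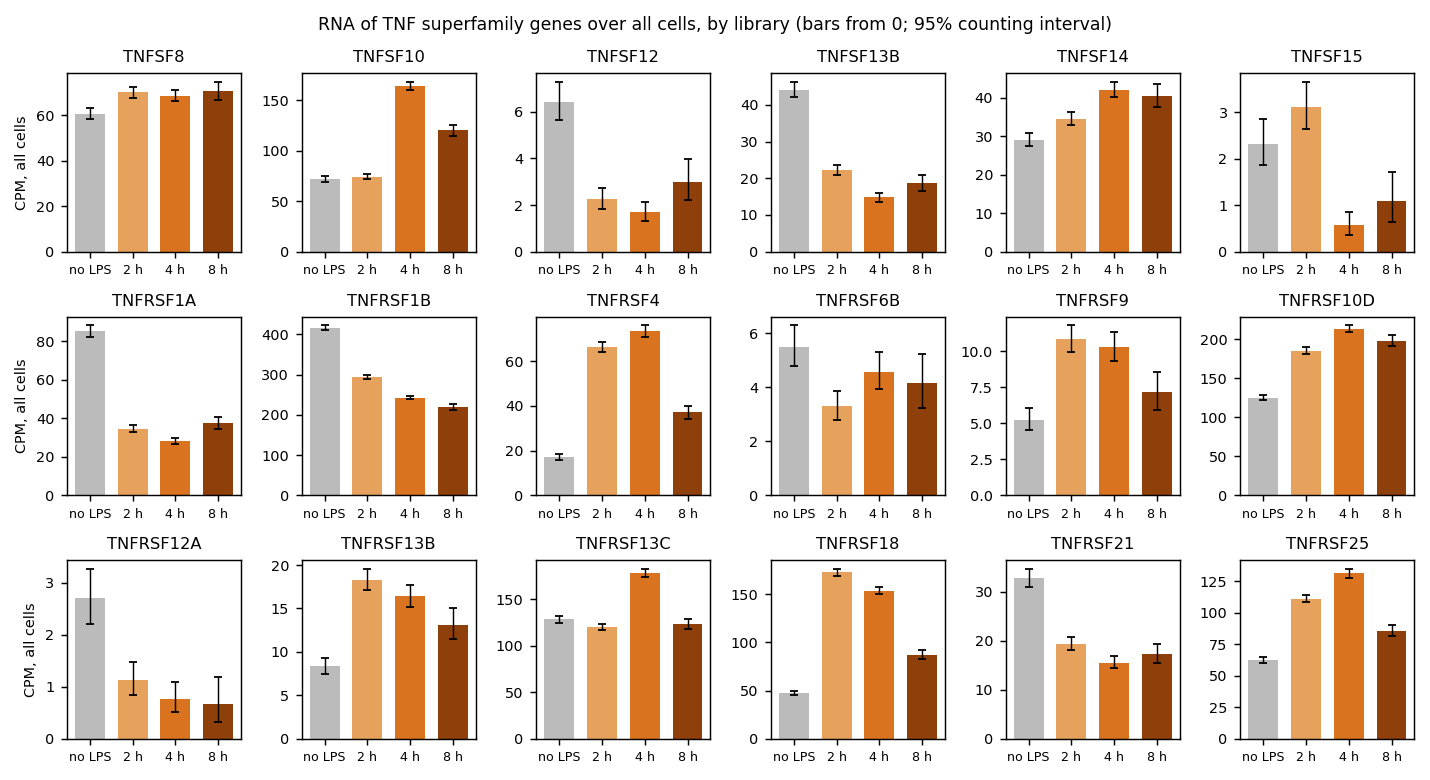
RNA level in CPM (vertical axis, from 0, own scale for each gene) of the 18 members with at least 200 UMIs, summed over all cells of the libraries without LPS and with 2 h, 4 h or 8 h LPS. Bars are single libraries and error lines are 95% counting intervals; TNFRSF4 and TNFRSF18 stand highest at 4 h and 2 h, and TNFRSF1A and TNFSF13B stand highest without LPS.

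TNFRSF4 (OX40, ENSBTAG00000015635) is a costimulatory receptor that activated T cells place on their surface. Its level over all cells was 17.1, 66.5, 73.4 and 37.1 CPM. The rise was 3.90-fold at 2 h (interval 3.58 to 4.24), 4.30-fold at 4 h (3.95 to 4.69) and 2.17-fold at 8 h (1.94 to 2.43). The call at 8 h was lost without the upper limit on genes per cell, with a pseudocount of 5 and with TMM or DESeq2 scaling, where the log2 ratio was 0.60, 0.93, 0.96 and 0.97 in place of 1.08. The level was thus highest at 2 h and 4 h and lay between these and the library without LPS at 8 h. In CD3E-gated cells it was 32.0, 113, 126 and 52.4 CPM, a rise of 3.53-fold at 2 h (3.20 to 3.90) and 3.94-fold at 4 h (3.58 to 4.35), with a ratio of 1.64 at 8 h (1.43 to 1.87) that was not called. MS4A1-gated cells had 4.47, 5.77, 6.47 and 7.92 CPM, with no call at any time.

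TNFRSF18 (GITR, ENSBTAG00000015632), a costimulatory receptor that regulatory and activated T cells carry, lies next to TNFRSF4 in the RefSeq table of ARS-UCD2.0, without overlap. Over all cells it had 47.3, 173, 154 and 87.3 CPM. This was a rise of 3.65-fold at 2 h (3.47 to 3.84) and 3.25-fold at 4 h (3.08 to 3.43), while the ratio of 1.85 at 8 h (1.72 to 1.98) was not called. In CD3E-gated cells it rose from 54.2 CPM to 256 CPM at 2 h and 233 CPM at 4 h and was at 102 CPM at 8 h. The rise in that class was 4.71-fold at 2 h (4.38 to 5.08) and 4.29-fold at 4 h (3.99 to 4.63).

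TNFRSF18 was called outside CD3E-gated cells too. In MS4A1-gated cells it rose from 6.26 CPM to 33.0 CPM at 2 h (5.27-fold, 3.91 to 7.25) and 14.7 CPM at 4 h (2.35-fold, 1.70 to 3.30), with 9.96 CPM at 8 h. The 406 UMIs at 2 h came from 119 of 2390 cells, with 39 in 1 cell. The 168 UMIs at 4 h came from 78 of 1892 cells, with 21 in 1 cell. In NCR1-gated cells it was 114, 338, 135 and 324 CPM, higher at 2 h and 8 h than without LPS and at 4 h, on 33 to 160 UMIs in 8 to 28 cells a library. At 8 h 1 of 38 cells held 39 of the 85 UMIs, and without LPS 1 cell held 13 of the 33. Without the cell with the most UMIs in each library the levels were 71.1, 286, 115 and 181 CPM, and both calls remained. With the 8 h cell alone left out the call at 8 h was lost, at 181 CPM against 114 CPM. CD14-gated cells had 24.4, 51.2, 22.1 and 18.3 CPM, a rise of 2.09-fold at 2 h (1.68 to 2.61) that was lost without the cell with the most UMIs in each library (23.1 and 45.5 CPM). The rise at 2 h was found in 4 of the 5 gated classes, or 3 without those cells, and FLT3-gated cells had too few UMIs of TNFRSF18 for a call at any time.

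In CD3E-gated cells the share of cells with a UMI was, like the level, higher at each LPS time than without LPS for both receptors. After each cell was thinned to 1000 UMIs, which left out 51 to 123 shallower cells a library, TNFRSF18 was seen in 3.46%, 13.1%, 13.4% and 7.30% of CD3E-gated cells. Without thinning the shares were 8.79%, 24.2%, 27.3% and 16.9%. In MS4A1-gated cells, a class of another lineage, the thinned shares were 0.428%, 1.40%, 1.39% and 2.10%. For TNFRSF4 the thinned shares were 2.04%, 6.53%, 7.02% and 4.15% in CD3E-gated cells and 0.367% to 1.46% in MS4A1-gated cells. Median depths were 4070 to 5242 UMIs in the CD3E gate and 3856 to 5408 UMIs in the MS4A1 gate.

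TNFRSF9, a costimulatory receptor of activated T and NK cells, had 5.25, 10.8, 10.3 and 7.14 CPM over all cells. Its CPM ratio was 2.06 at 2 h (1.75 to 2.44), and with 1 CPM added to each level it stayed just under the limit of 2-fold. Without the cell with the most UMIs in each library it had 3.92, 9.57, 9.59 and 3.78 CPM and was called higher at 2 h and 4 h. TNFRSF25 (DR3), the death domain receptor of the ligand TNFSF15, had 62.7, 111, 132 and 86.0 CPM over all cells and rose 2.10-fold at 4 h (2.00 to 2.20). In CD3E-gated cells TNFRSF25 was at 114, 176, 207 and 128 CPM, and the ratio of 1.82 at 4 h (1.72 to 1.92) was not called. The same receptor stood between 6.31 and 8.04 times higher in CD3E- than in MS4A1-gated cells in the 4 libraries.

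**Figure D2:**
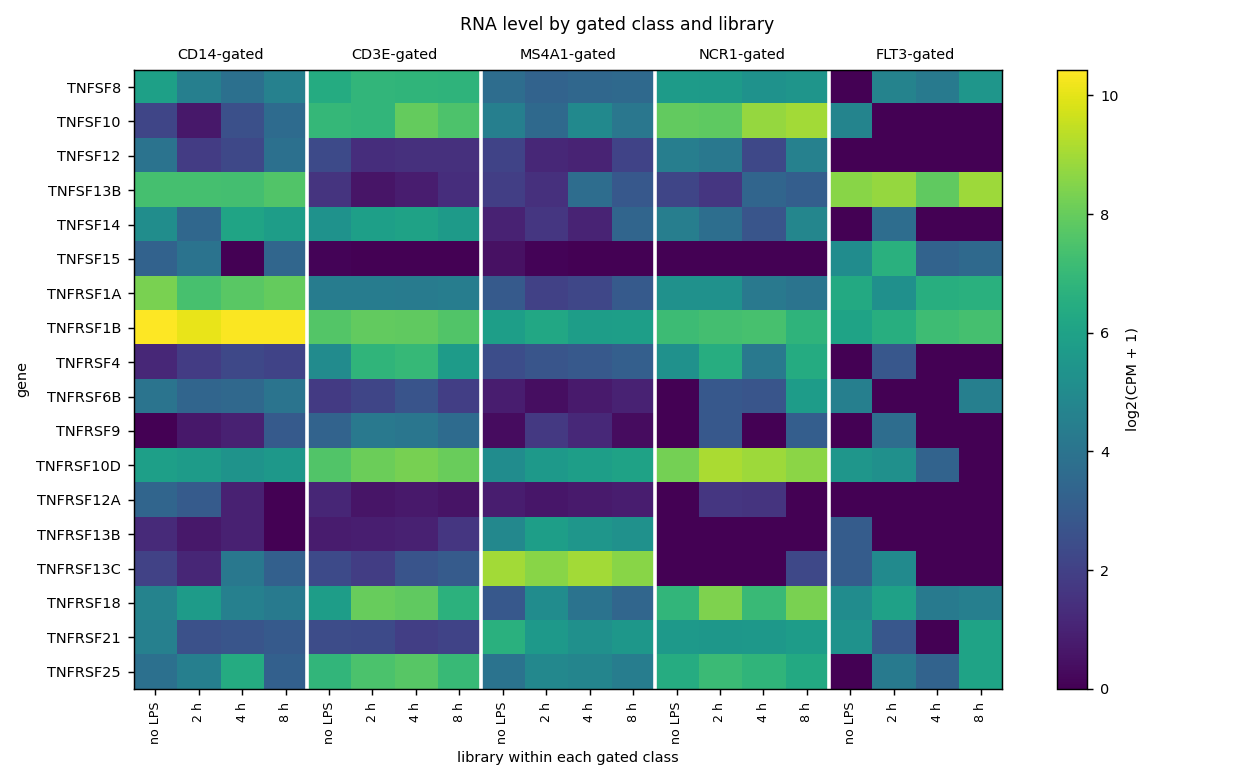
Level of the 18 members with at least 200 UMIs (rows) by gated class and library (columns), as log2(CPM + 1) in colour from 0 (dark) to above 10 (yellow). TNFRSF1B is brightest in CD14-gated cells, TNFRSF13C in MS4A1-gated cells and TNFSF10 and TNFRSF10D in NCR1-gated cells; the FLT3 columns rest on 20, 16, 8 and 6 cells.

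CD3E-gated cells were further divided by the genes CD4 (a marker of helper T cells), CD8A (of cytotoxic T cells) and WC1 (a marker of a bovine γδ T cell subset), each without the other 2 and without FOXP3. This division was added after values had been seen, and its values are given as a description. The CD4 group held 1027, 1354, 1048 and 466 cells, the CD8A group 326, 421, 371 and 150, and the WC1 group 248, 243, 178 and 108. TNFRSF4 was led by the CD4 group, with 61.4, 216, 216 and 69.4 CPM, while the CD8A group had 4.83, 14.0, 15.2 and 18.7 CPM and the WC1 group 13.6, 33.0, 28.4 and 26.9 CPM. At 2 h the CD4 group stood 6.53 times above the WC1 group (4.67 to 9.42) and at 8 h 2.58 times (1.55 to 4.60). The level of the CD4 group at 8 h was close to that without LPS, with overlapping intervals.

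TNFRSF18 had another order from that of TNFRSF4, with the WC1 group highest in every library. Its levels in the WC1 group were 114, 746, 551 and 225 CPM, in the CD4 group 50.4, 204, 156 and 86.7 CPM and in the CD8A group 11.5, 27.5, 32.1 and 19.8 CPM. The WC1 group stood 2.27 times above the CD4 group without LPS (1.81 to 2.84), 3.66 times at 2 h (3.35 to 4.00), 3.54 times at 4 h (3.17 to 3.94) and 2.60 times at 8 h (2.09 to 3.22). Against no LPS, the ratio at 2 h was 6.52 in the WC1 group (5.37 to 7.98), 4.04 in the CD4 group (3.53 to 4.65) and 2.39 in the CD8A group (1.41 to 4.24). The intervals of the WC1 and CD4 ratios did not overlap, and no library repeats the comparison. CD3E-gated cells with a FOXP3 UMI, a marker of regulatory T cells, were only 12, 18, 15 and 4 and had 320, 372, 438 and 96.6 CPM of TNFRSF18, the last on 2 UMIs.

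The WC1 group led other members as well. TNFSF14 (LIGHT), a ligand of the lymphotoxin β receptor, had 144, 236, 220 and 175 CPM there, against 19.7 to 27.1 CPM in the CD4 group and 18.7 to 24.8 CPM in the CD8A group. The WC1 group was thus 7.27 to 10.0 times above the CD4 group. TNFRSF9 had 63.0, 81.1, 24.2 and 20.2 CPM in the WC1 group, on 65, 86, 23 and 12 UMIs of which 1 cell held 51, 60, 3 and 7. Without that cell of each library the WC1 group had 13.7, 24.7, 21.1 and 8.57 CPM, so most UMIs of the libraries without LPS and at 2 h came from a single cell. In the CD4 group TNFRSF9 had 0.610, 4.78, 2.73 and 1.04 CPM on at most 31 UMIs, 24 of them in 1 cell. All CD3E-gated cells had 8.87, 17.4, 16.1 and 11.6 CPM of TNFRSF9, with 1 cell holding 51 of 135 UMIs without LPS and 56 of 96 at 8 h. Without the cell with the most UMIs in each library the levels were 5.53, 14.6, 15.04 and 4.84 CPM, a rise of 2.65-fold at 2 h and 2.72-fold at 4 h.

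**Figure D3:**
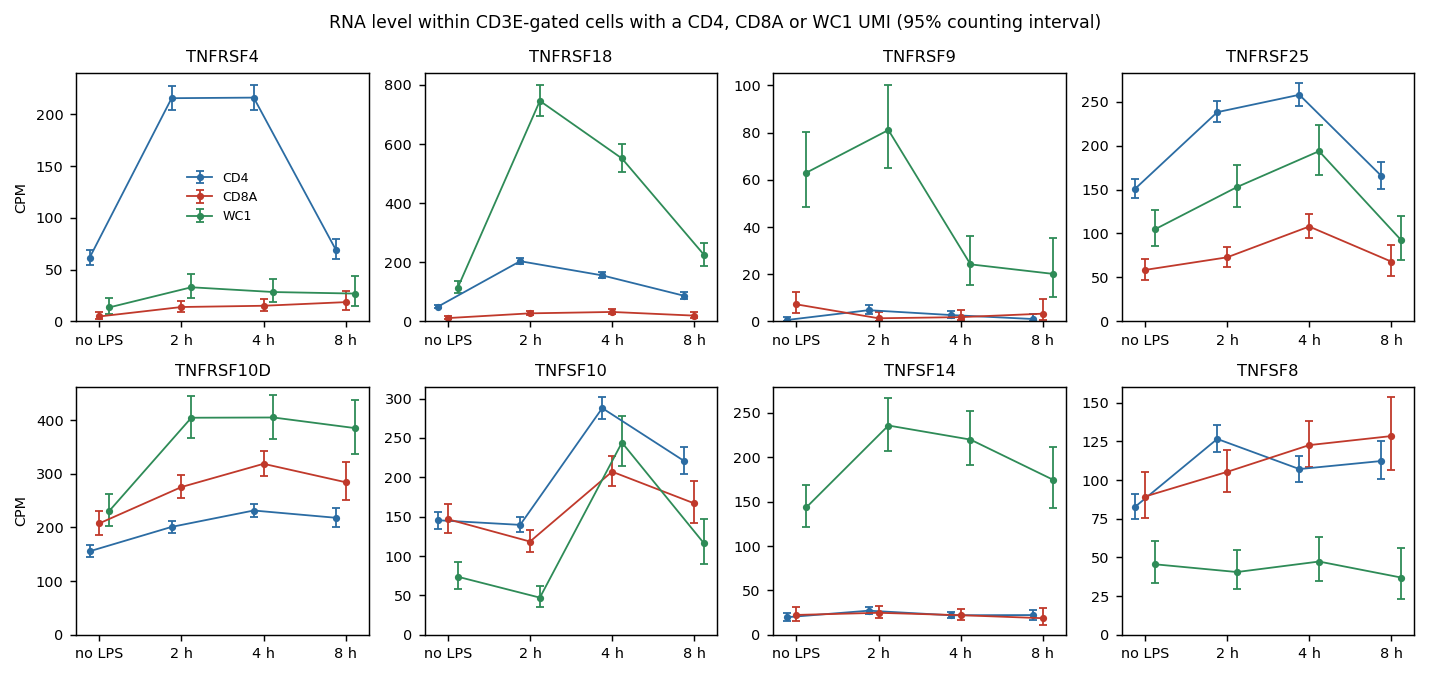
CPM (vertical axis, from 0) of 8 members in CD3E-gated cells with a UMI of CD4 (blue), CD8A (red) or WC1 (green) in the 4 libraries; points are single libraries with 95% counting intervals. TNFRSF4 and TNFRSF25 are highest in the CD4 group, TNFRSF18, TNFRSF9, TNFRSF10D and TNFSF14 in the WC1 group, and TNFSF8 is lowest in the WC1 group.

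TNFSF10 (TRAIL, ENSBTAG00000018994) is a death ligand that T and NK cells use against target cells. Over all cells it had 72.0, 74.3, 164 and 120 CPM, so that it was near its starting level at 2 h and rose 2.28-fold at 4 h (2.18 to 2.39). The ratio at 8 h was 1.67 (1.57 to 1.77). CD3E-gated cells showed 124, 117, 252 and 181 CPM, a rise of 2.03-fold at 4 h (1.93 to 2.15) that was lost with a pseudocount of 5. NCR1-gated cells showed 239, 228, 437 and 499 CPM, a rise of 2.08-fold at 8 h (1.55 to 2.83). The share of CD3E-gated cells with a UMI after thinning was 10.7%, 10.1%, 20.7% and 15.8%, against 0.805% to 1.93% of MS4A1-gated cells. Within the CD3E gate the ratio at 4 h was 1.98 in the CD4 group (1.81 to 2.16) and 3.31 in the WC1 group (2.55 to 4.35).

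TNFRSF10D, annotated as a decoy receptor of TNFSF10, had 125, 186, 214 and 198 CPM over all cells, with ratios of 1.48 to 1.71 that were not called. In CD3E-gated cells it had 191, 270, 309 and 260 CPM and in NCR1-gated cells 305, 554, 482 and 388 CPM. Its level in MS4A1-gated cells, 33.1, 47.2, 57 and 64.1 CPM, was 4.06 to 5.78 times below that of CD3E-gated cells. TNFSF8 (CD30 ligand), which activated T cells carry, had 60.7, 70.1, 68.7 and 70.7 CPM over all cells and 84.9, 115, 112 and 109 CPM in CD3E-gated cells, with no call in either. In CD14-gated cells, by contrast, TNFSF8 fell from 60.3 CPM to 21.5, 13.5 and 23.2 CPM. The call at 2 h was lost with other scalings, with a log2 ratio of -0.98 (TMM) or -0.87 (DESeq2) in place of -1.45, in a class where the median over all genes at 2 h was -0.57.

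TNFRSF1A (ENSBTAG00000004211) and TNFRSF1B (ENSBTAG00000024928) are the receptors of TNF itself, the first with a death domain and the second without. Both had CD14-gated cells as the leading class, the class at least 2-fold above each of the other 4 in all 4 libraries, which held for 2 of 24 members against 3.39% of all genes. TNFRSF1A had 318, 168, 216 and 252 CPM in CD14-gated cells and 19.3 to 20.2 CPM in CD3E-gated cells. TNFRSF1B had 1378, 1073, 1328 and 1308 CPM in CD14-gated cells and 191 to 242 CPM in CD3E-gated cells. The distance between these classes was smallest at 2 h for both receptors, at 8.47-fold (7.46 to 9.61) for TNFRSF1A and 4.43-fold (4.25 to 4.62) for TNFRSF1B. In CD14-gated cells the median log2 ratio over all genes at 2 h was -0.57, beside -0.92 for TNFRSF1A and -0.36 for TNFRSF1B. The part of this shift of the whole class in the 2 h values was not tested.

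Over all cells TNFRSF1A had 85.3, 34.5, 28.2 and 37.5 CPM and fell at each time, with the level without LPS 2.47 times that at 2 h (2.33 to 2.62), 3.03 times that at 4 h (2.83 to 3.24) and 2.27 times that at 8 h (2.09 to 2.48). Within CD14-gated cells the corresponding values were 1.89 (1.73 to 2.08), 1.47 (1.28 to 1.70) and 1.26 (1.07 to 1.5), none of them called, and in CD3E-gated cells all 3 lay between 0.980 and 1.02. TNFRSF1B over all cells had 416, 294, 243 and 219 CPM, and within CD14-gated cells its ratio to no LPS was 0.964 at 4 h (0.910 to 1.02) and 0.949 at 8 h (0.882 to 1.02). The share of CD14-gated cells among the cells kept moved in the same direction, as given above, and its part in these values was not tested. With every cell weighted equally, the log2 ratio of TNFRSF1A over all cells was -0.79, -0.83 and -0.29, no longer past 2-fold.

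**Figure D4:**
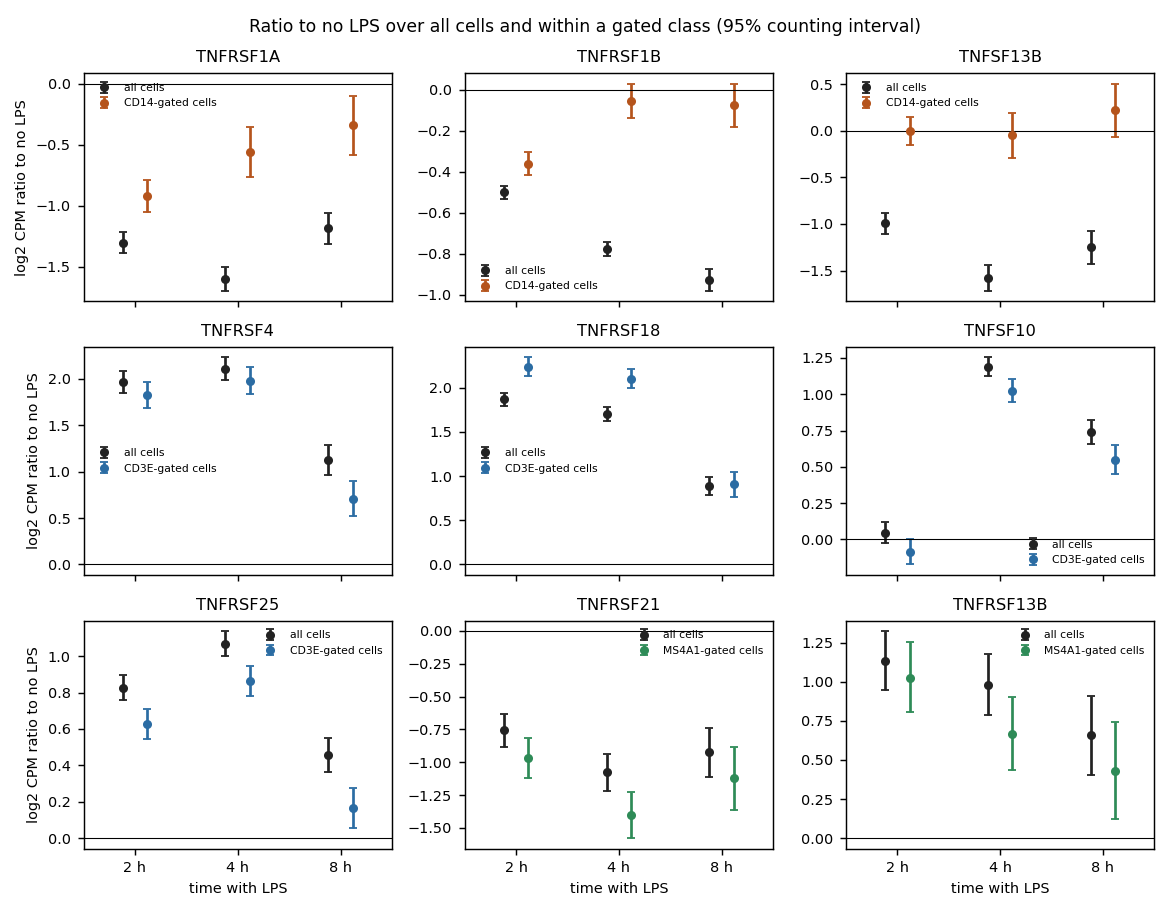
Log2 ratio of CPM to the library without LPS (vertical axis, own scale for each gene) at 2 h, 4 h and 8 h for 9 members, over all cells (black) and within CD14- (brown), CD3E- (blue) or MS4A1-gated cells (green), with 95% counting intervals. For TNFRSF1A, TNFRSF1B and TNFSF13B the class lies nearer to 0 than all cells do, while for TNFRSF4, TNFRSF18 and TNFRSF21 both lie far from 0 at 2 h and 4 h.

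The ligands and receptors of B cell survival lay in different classes. TNFSF13B (BAFF, ENSBTAG00000011563), the B cell survival factor made by myeloid cells, had 163, 163, 158 and 191 CPM in CD14-gated cells, with ratios to no LPS of 1.00 (0.902 to 1.11), 0.967 (0.816 to 1.14) and 1.17 (0.958 to 1.42). The 2 h ratio depends on the scaling. The TMM factor of that class was 1.08 without LPS and 0.772 at 2 h, which would place this ratio higher. The median log2 ratio over all genes of the class at 2 h was -0.57, and its part was not tested. In FLT3-gated cells it had 380, 437, 237 and 477 CPM, 1.5 to 2.68 times the level of CD14-gated cells, and the interval of that ratio included 1 at 4 h (0.954 to 2.28). Over all cells TNFSF13B had 44.2, 22.2, 14.8 and 18.6 CPM, and the level without LPS was 2.99 times that at 4 h (2.72 to 3.29) and 2.37 times that at 8 h (2.10 to 2.69). The share of CD14-gated cells among the cells kept was lower in each LPS library as well, and its part in the fall was not tested. Without the upper limit on genes per cell the fall at 8 h was smaller, with a log2 ratio of -0.48 in place of -1.20.

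MS4A1-gated cells carried the receptors of this system and were the leading class of 2 of 24 members, TNFRSF13C and TNFRSF13B, against 1.56% of all genes. TNFRSF13C (BAFF receptor, ENSBTAG00000026489) had 505, 386, 501 and 380 CPM in MS4A1-gated cells and at most 17.3 CPM in CD14- and 6.89 CPM in CD3E-gated cells. TNFRSF13B (TACI), a receptor of TNFSF13B and of the related ligand TNFSF13, had 27.8, 56.7, 44.2 and 37.6 CPM there, with a ratio of 2.04 at 2 h (1.75 to 2.38) that fell just short of the limit once 1 CPM was added. Over all cells TNFRSF13B had 8.34, 18.3, 16.5 and 13.2 CPM and rose 2.20-fold at 2 h (1.93 to 2.5). That call was lost without the upper limit on genes per cell, with a log2 ratio of 0.66 in place of 1.05, and with cells weighted equally, also 0.66.

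TNFRSF21 (DR6), a receptor with a death domain, fell in MS4A1- and CD14-gated cells. Its level in MS4A1-gated cells was 96.7, 49.4, 36.6 and 44.5 CPM, and the level without LPS was 2.64 times that at 4 h (2.34 to 2.99) and 2.18 times that at 8 h (1.84 to 2.58). At 2 h it was 1.96 times (1.76 to 2.18), which was not called. NCR1-gated cells had 48.6, 44.4, 46.3 and 53.3 CPM of TNFRSF21 on 14 to 24 UMIs a library. The monocyte list in MS4A1-gated cells moved as well, with 282, 22.7, 29.0 and 138 CPM in all, and its part in the result was not tested. TNFRSF21 fell in CD14-gated cells too, from 22.6 CPM to 4.94, 5.77 and 6.64 CPM, on 150 UMIs without LPS and 17, 6 and 4 with it. The level without LPS in that class was 4.58 times that at 2 h (2.77 to 8.07), 3.92 times that at 4 h (1.76 to 10.9) and 3.41 times that at 8 h (1.303 to 12.7). Without the upper limit on genes per cell the log2 ratio at 8 h was 0.0135 in place of -1.63.

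In MS4A1-gated cells 6 of 16 members tested were called at any time, against 10.8% of all genes. At 2 h 2 of 15 rose, against 2.59%, and none fell, against 1.69%. At 4 h 2 of 14 rose and 2 fell, against 2.6% and 4.69%, and at 8 h 1 of 15 rose and 1 fell, against 1.7% and 1.94%. Besides TNFRSF18 and TNFRSF21 these were TNFSF12, TNFSF13B, TNFSF14 and TNFRSF9, all at low levels. TNFSF13B had 2.81, 1.71, 12.1 and 6.39 CPM there, and the rise at 4 h was 4.30-fold (2.73 to 7.08) on 138 UMIs. TNFSF14 had 1.02, 2.11, 1.05 and 9.45 CPM, a rise at 8 h on 37 UMIs in 16 of 662 cells, with 20 of them in 1 cell. Without the cell with the most UMIs in each library TNFSF14 was at 0.640 and 4.35 CPM without LPS and at 8 h. TNFRSF9 had 2 UMIs in 1 cell without LPS and 28 at 2 h, from 7 of 2390 cells with 11 UMIs in 1 cell, and without those 2 cells it had too few UMIs for a call. It passed the minimum of 20 UMIs only through the 2 h library itself. TNFSF12 fell from 3.32 CPM to 1.05 CPM at 4 h on 26 and 12 UMIs, each in another cell.

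CD3E-gated cells had 4 of 19 members called at any time (TNFSF10, TNFRSF4, TNFRSF11B and TNFRSF18), against 2.71% of all genes, and all 4 rose. At 2 h 2 of 18 rose, against 0.57%, and none fell, against 0.308%. At 4 h 4 of 19 rose, against 1.05%, and none fell, against 0.732%, and at 8 h none of 17 rose or fell, against 0.65% and 0.514%. Among the CD14, CD3E and MS4A1 classes alone, a comparison added after the data were seen, CD3E-gated cells led 5 of 23 members (TNFSF10, TNFRSF4, TNFRSF10D, TNFRSF18 and TNFRSF25), against 4.11% of all genes. CD14-gated cells then led TNFRSF1A, TNFRSF1B and TNFSF13B, against 6.94%, and MS4A1-gated cells TNFRSF13B, TNFRSF13C and TNFRSF21, against 3.14%. With all 5 classes the CD3E-, NCR1- and FLT3-gated cells each led no member, against 1.23%, 0.976% and 1.48% of all genes. NCR1-gated cells, in which the T cell list summed to 418 to 503 CPM, stood above CD3E-gated cells in every library for several members. These included TNFSF10, TNFRSF10D and TNFRSF21, the last 10.7 to 16.5 times higher on 14 to 24 UMIs a library in the NCR1 gate.

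CD14-gated cells had 11 of 17 members called at any time, in a class where 40.3% of all genes were called. At 2 h 1 of 17 rose and 6 fell, against 4.12% and 22% of all genes, at 4 h 2 of 16 rose and 6 fell, against 5.71% and 13%, and at 8 h 2 of 16 rose and 3 fell, against 5.22% and 8.87%. Their median log2 ratio was -0.60 at 2 h beside -0.57 over all genes of that class. In CD14-gated cells TNFSF14 fell from 33.6 CPM to 10.2 CPM at 2 h and was at 67.3 and 54.8 CPM at 4 h and 8 h. TNFRSF25 in that class had 13.4, 21.8, 83.6 and 8.30 CPM, a rise of 6.23-fold at 4 h (4.58 to 8.47), carried by 29 of 111 cells with up to 13 UMIs in 1 cell. The T cell list was at 10.6 CPM in the CD14-gated cells of that library, which were gated to hold no CD3E UMI, and its part was not tested. The neutrophil list moved in the same direction, with 13.3, 56.7, 183 and 34.9 CPM in CD14-gated cells and MMP8 at 0 throughout, and its part in these values was not tested.

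In NCR1-gated cells 4 of 9 members were called at any time, against 15.9% of all genes. At 2 h 2 of 9 rose (TNFRSF4 and TNFRSF18) and none fell, against 4.57% and 2.96%. At 4 h none rose and 2 of 9 fell (TNFRSF1A and TNFRSF4), against 5.46% and 3.29%, and at 8 h 3 of 8 rose (TNFSF10, TNFRSF4 and TNFRSF18) and none fell, against 3.88% and 3.78%. TNFRSF4 had 38.2, 88.8, 17.3 and 83.8 CPM there, on 9 to 42 UMIs from 2 to 8 cells a library, with 8 of 11 UMIs in 1 cell without LPS and 16 of 22 at 8 h. Without the cell with the most UMIs in each library its call at 2 h remained, while TNFRSF4 at 4 h and 8 h and TNFRSF1A at 4 h had too few UMIs for a call. FLT3-gated cells had 3 of 4 members called at any time, against 41.4% of all genes. TNFRSF1B rose at 4 h and 8 h (64.5, 92.3, 146 and 163 CPM, on 15 to 18 UMIs), against 9.72% and 9.51%, and both calls were lost without the cell with the most UMIs in each library. At 2 h TNFSF15 rose, against 8.13%, and TNFRSF1A fell, against 10.1%, and none of the members fell at 4 h or 8 h, against 15% and 12.4%. In this class TNFSF15 (32.2, 98.5, 9.12 and 10.8 CPM) came from 1 cell in each library.

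The remaining members were low. TNFSF12 (TWEAK) had 6.44, 2.26, 1.69 and 3.0 CPM over all cells, and the level without LPS was 2.86 times that at 2 h (2.27 to 3.61) and 3.80 times that at 4 h (2.90 to 5.05). Its receptor TNFRSF12A had 2.70, 1.13, 0.772 and 0.660 CPM and fell at 4 h and 8 h. TNFSF15 (TL1A) had 2.31, 3.11, 0.573 and 1.08 CPM and fell at 4 h. TNFRSF6B, a soluble decoy receptor of several of these ligands, had 5.51, 3.30, 4.58 and 4.14 CPM, and TNFSF14 had 29.1, 34.6, 42.1 and 40.5 CPM, neither with a call.

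Among members with at least 20 but under 200 UMIs, TNFRSF11B (osteoprotegerin), the soluble decoy of TNFSF11, had 1, 13, 59 and 3 UMIs over all cells and was called at 4 h, with a CPM ratio of 56.6 and an interval of 9.77 to 2270. The 59 UMIs came from 22 cells, with 12 in 1 cell. TNFRSF11B passed the minimum of 20 UMIs only through the 4 h library itself. In CD3E-gated cells it had 1, 13, 36 and 3 UMIs and passed that minimum in the same way. TNFSF11 (RANKL) itself had 10, 32, 34 and 9 UMIs and its receptor TNFRSF11A had 52, 18, 10 and 14. TNFSF4, the ligand of TNFRSF4, had 6, 22, 18 and 14 UMIs. TNFSF9, the ligand of TNFRSF9, had 55, 70, 38 and 18 UMIs, and TNFSF13 (APRIL) had 19, 11, 11 and 5. None of these last 5 was called over all cells. In CD14-gated cells TNFRSF11A had 3.77, 0.872, 0.961 and 3.32 CPM on 25, 3, 1 and 2 UMIs and was called lower at 2 h and 4 h, with the level without LPS 4.32 times that at 2 h (1.32 to 22.4) and an interval at 4 h that included 1 (0.642 to 161).

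Members of the superfamily under other names and their signal transducers were described over all cells. Of 4 other ligands tested none was called at any time, and TNF had 30.6, 51.4, 26.7 and 29.0 CPM. Of 5 other receptors tested, FAS and CD40 rose and LTBR, the lymphotoxin β receptor that binds TNFSF14, fell at 2 h, against 0.938% higher and 2.46% lower of all genes. FAS rose at 4 h too, against 1.28%. FAS, a death receptor, had 30.3, 62.3, 67.9 and 47.3 CPM, and CD40, the costimulatory receptor of B cells and antigen-presenting cells, had 61.2, 187, 104 and 54.3 CPM. LTBR had 39.4, 9.02, 4.61 and 8.04 CPM and was called lower at all 3 times, against 4.26% of all genes at 4 h and 2.92% at 8 h. Of 35 adaptors and signal transducers tested, TRAF1, TRAF4, BIRC3 and TNFAIP3 rose at 2 h (4 of 35, against 0.938% of all genes) and TRAF4 alone at 4 h (against 1.28%). None rose at 8 h, against 0.492%, and none fell at 2 h, 4 h or 8 h, against 2.46%, 4.26% and 2.92%. TRAF1, an adaptor that TNF receptors recruit, had 30.6, 95, 55.9 and 39.4 CPM, and TNFAIP3, an inhibitor of NF-κB signalling, had 99.1, 283, 150.0 and 114 CPM, highest at 2 h in both.

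The scATAC-seq tables gave counts of transposase-accessible chromatin per gene and barcode for part of the members. Whether fragments or their ends were counted is not given in the sources used here. The counts summed to 975012, 30250143, 26837579 and 11957904, so the library without LPS was far shallower, with a median of 213 counts per barcode. It shared 228 of its 3121 barcodes (7.31%) with the 2 h library, while other pairs shared 10 to 31. Of the barcodes without LPS only 352 had at least 500 counts, while every barcode of the LPS libraries did. Most counts were even, so intervals were computed on halved counts. Listed members numbered 14, 22, 21 and 18 of 27, and TNFSF15, TNFSF18, TNFRSF10D, TNFRSF11B and TNFRSF12A were listed in no table. The tables list 11658, 13821, 13255 and 11573 genes. Among the LPS libraries this order follows the summed counts, while the far shallower library without LPS lists slightly more genes than the 8 h library. Why a gene is not listed was not tested, so an unlisted gene says nothing of closed chromatin.

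Between 2 h and 4 h no member of 21 tested was called, against 1.9% of all genes called in either direction. Between 2 h and 8 h 7 of 18 members were at least 2-fold lower at 8 h (TNFSF14, TNFRSF4, TNFRSF6B, TNFRSF9, TNFRSF13B, TNFRSF13C and TNFRSF18), against 6.7% of all genes, and none was higher, against 1.16%. Median counts per barcode were 5171 at 2 h and 2250 at 8 h. The sums run over all barcodes, so cell mix, depth and treatment cannot be told apart in them. TNFRSF4 had 18.8, 18.7 and 6.61 CPM at 2 h, 4 h and 8 h, and TNFRSF18 had 26.1, 14.6 and 3.26 CPM, neither being listed without LPS. The 2 h level was 2.84 times the 8 h level for TNFRSF4 (2.03 to 4.07) and 8.01 times for TNFRSF18 (5.09 to 13.3). RNA over all cells was also lower at 8 h than at 2 h for both genes.

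TNFRSF9 and TNFRSF13B likewise had less RNA over all cells at 8 h than at 2 h. TNFRSF9 had 19.4, 18.2 and 7.11 scATAC CPM at 2 h, 4 h and 8 h, beside RNA of 10.8, 10.3 and 7.14 CPM. TNFRSF13B had 32.8, 55.4, 56.0 and 6.77 scATAC CPM in the 4 libraries, beside RNA of 8.34, 18.3, 16.5 and 13.2 CPM, and its 2 h scATAC level was 8.17 times that at 8 h (5.96 to 11.5). The other 3 members lower in scATAC counts at 8 h had RNA over all cells that was not lower at 8 h than at 2 h. TNFSF14 had 2 scATAC counts without LPS (2.05 CPM), then 107 CPM at 2 h, 100.5 CPM at 4 h and 12 CPM at 8 h, while its RNA was 34.6, 42.1 and 40.5 CPM at those LPS times. TNFRSF13C RNA was 120, 179 and 123 CPM at the same times and TNFRSF6B RNA 3.30, 4.58 and 4.14 CPM. TNFRSF1A, whose RNA over all cells fell, had 36.9, 121, 114 and 93.2 scATAC CPM. Its ratio to no LPS was 3.28 at 2 h (2.07 to 5.54) on 36 counts without LPS. TNFSF10, whose RNA rose at 4 h, had 45.1, 44.9, 52.2 and 49.1 scATAC CPM, with overlapping intervals between the library without LPS and each of the others.

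Against no LPS 6 of 14 members were higher at 2 h (TNFSF13B, TNFSF14, TNFRSF1A, TNFRSF6B, TNFRSF8 and TNFRSF25), against 9.23% of all genes, and the same 6 were higher at 4 h, against 8.23%. For TNFSF13B and TNFRSF6B, with 4 and 6 counts without LPS, the intervals of the ratio at 2 h and 4 h included 1. TNFRSF8, which overlaps TNFRSF1B in the RefSeq table of ARS-UCD2.0, had 39.0, 97.1, 92.0 and 63.2 scATAC CPM beside 16 UMIs of RNA in all, and how shared fragments were assigned is not given in the sources used here. At 8 h TNFSF13B, TNFSF14 and TNFRSF1A were higher, against 4.25%, and TNFRSF13B and TNFRSF13C lower, against 5.21%. Without barcodes found in more than 1 library, 5 members were called at each of 2 h, 4 h and 8 h against no LPS, none at 4 h against 2 h and 7 at 8 h against 2 h. Depth and treatment cannot be told apart in these ratios to the library without LPS.

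**Figure D5:**
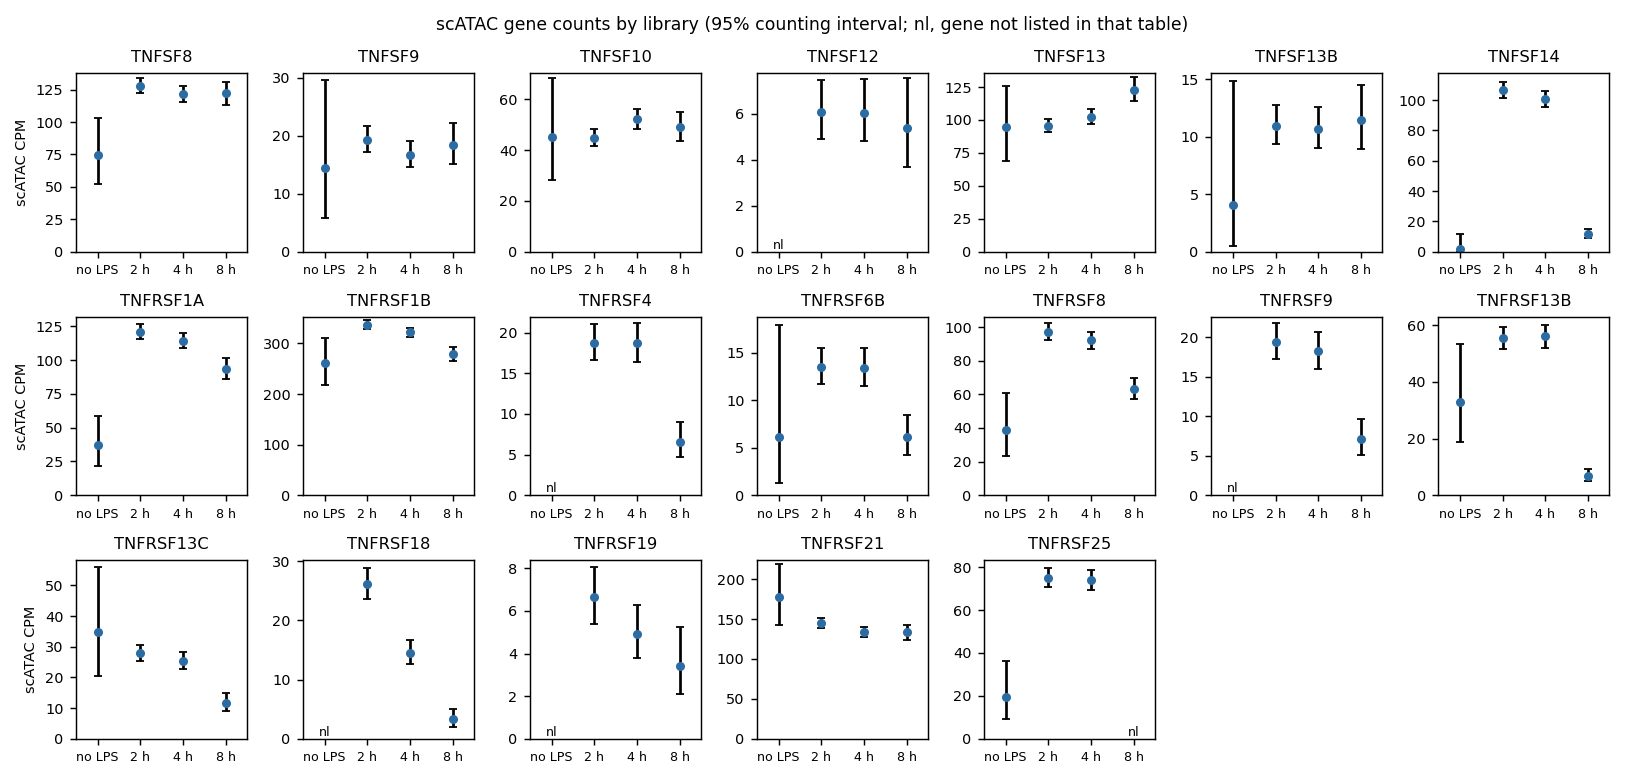
scATAC counts scaled to CPM (vertical axis, from 0, own scale for each gene) of the 19 members listed in at least 3 of the 4 tables, with 95% counting intervals; nl marks a table that does not list the gene. TNFSF14, TNFRSF4, TNFRSF9, TNFRSF13B and TNFRSF18 are lower at 8 h than at 2 h and 4 h, while TNFSF8, TNFSF10 and TNFRSF21 are level over the LPS times.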

How the data were processed

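For scRNA-seq (10x 3′ v3) the authors deposited UMI counts per gene and barcode, unnormalized, made with Cell Ranger on ARS-UCD1.2 (bosTau9). For scATAC-seq (10x v1.1) the deposited counts are also per gene and barcode, and the rule that assigned fragments to genes is not given in the sources used here. Barcodes were kept as cells if they had between 200 and 3000 genes, no fewer than 200 UMIs and a mitochondrial share below 20%. Every scATAC barcode was kept. Counts were summed per library, or per library and gated class, and scaled to CPM. Ratios used a pseudocount of 1, with a minimum of 20 UMIs or 40 scATAC counts over the compared sums, and a call needed 2-fold. Intervals are exact 95% Poisson intervals for levels and exact conditional binomial intervals for ratios of CPM, and the even scATAC counts were halved for them. PCR copies and cell sampling are not covered. Members with at least 200 UMIs are given with all levels, those with 20 or more in short, and of the other lists those called.

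With 1 library per treatment no test was made. edgeR 4.0.16 (TMM) and DESeq2 1.42.0 gave scaling factors for alternatives only, and the ratio step was tested on simulated data. Python 3.11.15, numpy 2.4.6 and scipy 1.17.1 were used. All 27 symbols matched RefSeq (ARS-UCD2.0), whose coordinates were not used because its build differs. Members and lists were chosen with earlier results of these data known, and 1 item is not reported here.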

Additional observations from a re-analysis of the deposited data

Results flagged for a closer look

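TNFRSF4 at 4 h moved in opposite directions in 2 classes. Its log2 ratio to no LPS was 1.95 in CD3E-gated cells and -1.09 in NCR1-gated cells. The NCR1-gated value rests on 11 UMIs in 2 of 58 cells without LPS, 8 of them in 1 cell, and 9 UMIs in 6 of 90 cells at 4 h, and its CPM ratio of 0.455 had a counting interval of 0.167 to 1.21. At 2 h and 8 h the same receptor was higher than without LPS in NCR1-gated cells, with ratios of 2.33 (1.18 to 5.02) and 2.20 (1.02 to 5.01). The difference between the classes was not tested, since each has 1 library per treatment.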

How the results depend on the processing

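No paired analysis was possible because each treatment had 1 library per assay and the labels give no replicate numbers. Over all cells, the 2 members lower at 2 h became 1 with a pseudocount of 5, and the 6 lower at 4 h became 2 with that pseudocount and 3 with cells weighted equally. The 1 member higher at 8 h, TNFRSF4, was lost (0 members) without the upper limit on genes, with a pseudocount of 5 and with TMM or DESeq2 scaling. The 3 lower at 8 h became 1 without the upper limit, 5 with TMM and 0 with cells weighted equally. With at least 100 UMIs the members called in a class became 6 for CD14, 3 for MS4A1, 2 for NCR1 and 0 for FLT3, and with no minimum 17 for CD14, 15 for NCR1 and 15 for FLT3. A pseudocount of 5 left 2 for CD3E, and at least 2 UMIs of the gate gene left 1 for NCR1 and 1 for FLT3. Without the cell that held the most UMIs of the gene in each library, a setting chosen after seeing the data, FLT3 had 1. Members led by CD14-gated cells became 1 when cells were gated by the gene with the most UMIs, and those led by MS4A1-gated cells 1 without the upper limit. CD3E-gated cells led 5 with 3 classes, and FLT3-gated cells 1 without the 8 h library, both chosen after seeing the data. The scATAC calls at 8 h against no LPS became 1 with at least 200 counts. In CD14-gated cells at 8 h, without the upper limit, TNFSF10 went from 1.5 to -0.23 and TNFRSF21 from -1.63 to 0.0135 on the log2 scale. The cause of these changes was not tested. Another 167 recomputed counts stayed within 1.5 times the value reported. The low UMI total of the 8 h RNA library and the low depth of the no LPS scATAC library limit members under 200 UMIs.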
